A study of Schmidtea mediterranea with 171 samples.

Results

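Single X1 cells of the planarian Schmidtea mediterranea were compared by their level of piwi-1, with the X1 cells low in piwi-1 set against the X1 cells high in it. A cell was called low when piwi-1 (transcript SmedASXL_008653) was below 5 CPM (counts per 1000000 reads assigned to a transcript) and high when it was at 100 CPM or more. Of the 96 single X1 cells, 27 were low and 56 were high, and the 13 cells between these limits were left out of the comparison. The 83 cells compared belong to a series that also holds 72 single X2 cells and 3 tubes of 200 cells. Heads of 30 starved wild-type animals of the asexual, clonal strain CIW4 were cut off and dissociated. Cells were sorted by Hoechst stain into the X1 gate (dividing cells with replicated DNA) and the X2 gate. The X2 gate holds smaller cells that are not replicating DNA, a mixture of neoblasts and early progeny. All low and high cells share this origin and no treatment separates them. Each cell was amplified with SmartSeq2, which makes full-length cDNA from 1 lysed cell and adds no molecular identifiers, so the counts are amplified reads. The labels do not tie cells to animals or to a sort. The gate is therefore 1 sample, cells are not replicates of a condition, and no test was made. Intervals on shares of cells are exact 95% Clopper-Pearson intervals and cover counting error alone.

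Planarian neoblasts are the adult stem cells of the animal and its only dividing somatic cells. They are known for the germ cell-like RNA-binding proteins they carry, among them the PIWI proteins, Argonaute family members that bind small piRNAs and silence transposons, and piwi-1 transcript is the standard marker for them. Cells on the way to a fate lose this transcript and gain genes of the tissue they will join, which in the head include the brain.

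The starts of 3 coding sequences are shown. The first is piwi-1, whose reads alone chose the cells. The others are piwi-2, a second PIWI gene whose reads were found in every low cell, and msi-1, a Musashi-like gene. Among the nu-genes described below, msi-1 was found in the largest number of low cells. Each is 120 bases from the first ATG (in capitals) that opens a frame with no stop up to the end of the 399 bases listed for that transcript, and this frame was not tested as the protein's start.
piwi-1: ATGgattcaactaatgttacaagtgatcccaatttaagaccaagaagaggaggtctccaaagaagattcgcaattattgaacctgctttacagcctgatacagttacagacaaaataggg
piwi-2: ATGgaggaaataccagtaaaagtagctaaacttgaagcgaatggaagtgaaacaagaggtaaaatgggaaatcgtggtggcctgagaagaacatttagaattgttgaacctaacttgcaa
msi-1: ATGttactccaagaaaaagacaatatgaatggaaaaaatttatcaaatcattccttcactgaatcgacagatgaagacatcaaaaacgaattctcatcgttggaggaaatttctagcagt
The longest run of letters that the listed bases of piwi-1 and piwi-2 shared was 10 bases. The rest of both transcripts was not compared here.

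The values of piwi-1 chose the cells and are given as a description. In the low cells piwi-1 ran from 0 to 4.50 CPM with a median of 1.04 CPM, from 0 to 22 reads in a cell. In the high cells it ran from 116 to 3542 CPM with a median of 466 CPM, from 339 to 14559 reads. The last cell inside the low limit was X1.36 at 4.50 CPM and the first outside was X1.37 at 5.18 CPM, while the last cell below the high limit was X1.25 at 94.7 CPM and the first above it was X1.77 at 116 CPM. In the 2 tubes of 200 X1 cells piwi-1 was at 427 and 548 CPM. Of the 27 low cells 8 had no piwi-1 read at all, namely the 6 low cells numbered 1 to 24 (X1.4, X1.6, X1.7, X1.13, X1.16 and X1.24) together with X1.53 and X1.54.

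**Figure D1:**
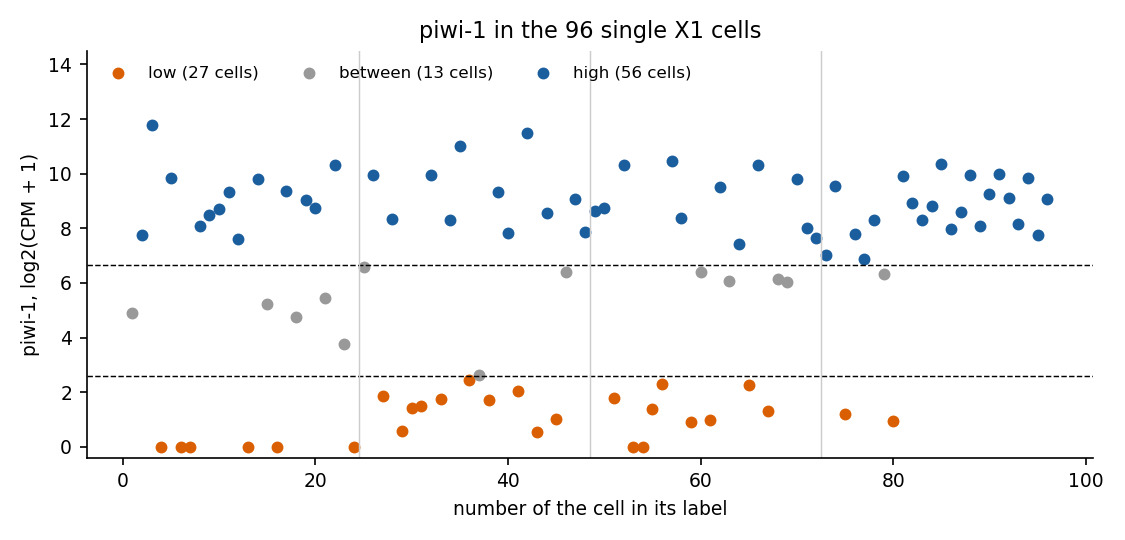
piwi-1 as log2(CPM + 1) (vertical axis) in each of the 96 single X1 cells by the number in the cell's label (horizontal axis), with low cells in orange, cells between in grey and high cells in blue. Dashed lines mark 5 and 100 CPM and grey lines part the numbers into ranges of 24, of which the last, 73 to 96, holds 2 low cells.

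The low and high cells differed in technical measures that touch every comparison below. Reads assigned to a transcript numbered 0.813 to 9.33 M (1 M being 1000000 reads) in low cells (median 2.426 M) and 0.988 to 20.2 M in high cells (median 3.47 M). Low cells had reads on a median of 4453 transcripts (1685 to 7252), against 5422.5 in high cells (978 to 11287), and after thinning every cell to 100000 reads the medians were 2076 transcripts in low cells and 2210 in high cells. Reads assigned to no transcript were a median of 23.3% of a low cell's reads and 17.2% of a high cell's. The 10 most abundant transcripts of a cell held a median of 82.7% of the assigned reads in low cells and 87.6% in high cells. This share bears on the CPM of all other transcripts. The low cells were also spread unevenly over the label numbers, with 6, 10, 9 and 2 low cells in the numbers 1 to 24, 25 to 48, 49 to 72 and 73 to 96, where 13, 11, 11 and 21 cells were high. The labels do not say what the numbers stand for, and the part of depth, of the most abundant transcripts and of numbering in the results was not tested. Values within ranges of numbers are given below for some genes. The alpha-tubulin transcript, a gene of every cell, was present (at 5 CPM or more, in this and all counts of cells) in 25 of 27 low cells and in 51 of 56 high cells, with a mean of 128 ± 118 CPM in low cells and 67.5 ± 68.6 CPM in high cells (SD over cells, n = 27 and 56).

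The other stem cell markers were lower in the low cells, by amounts that differed from gene to gene and from cell to cell. The list holds piwi-2, piwi-3, bruli (a Bruno-like RNA-binding protein needed to keep neoblasts), vasa-1 and vasa-2 (DEAD-box RNA helicases) and HP1-1 (a heterochromatin protein). Of these 6 genes, 5 had a mean CPM at least 2-fold lower in low cells and none was 2-fold higher. Over all 15135 transcripts with reads in at least 10% of the low and high cells, 19.4% were 2-fold lower and 21.2% were 2-fold higher, so a 2-fold difference in mean was common. By shares of cells at 5 CPM or more, 5 of the 6 were lower by 25 points or more in low cells, a difference that 3.56% of all these transcripts had in this direction. The median log2 ratio of mean CPM (low over high, pseudocount of 1 CPM) was -1.71 for the list and 0.04 for all transcripts.

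piwi-2 was the marker present in the most low cells. It was at 5 CPM or more in 26 of 27 low cells (96.3%, interval 81.0% to 99.9%) and in 56 of 56 high cells. Its level was 365 CPM at the median in low cells, with the highest cell at 1920 CPM, against 900 CPM in high cells, which ran from 9.42 to 3451 CPM. The 2 groups overlapped over most of their range, and the mean of 419 ± 451 CPM in low cells and 1038 ± 731 CPM in high cells gave a log2 ratio of -1.31. Every low cell had at least 1 read of piwi-2.

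vasa-1 and HP1-1 parted the groups more sharply. vasa-1 had a median of 0.565 CPM in low cells (highest 255 CPM) and 220 CPM in high cells (highest 1060 CPM). It was at 5 CPM or more in 7 of 27 low cells (25.9%, interval 11.1% to 46.3%), against 50 of 56 high cells (89.3%, interval 78.1% to 96.0%), with a log2 ratio of -3.45. A minority of low cells thus reached 5 CPM of vasa-1, as most high cells did, led by X1.41 at 255 CPM and X1.24 at 209 CPM. HP1-1 had the same counts of cells as vasa-1, 7 low and 50 high, with a median of 0.261 CPM in low cells (highest 218 CPM) and 73.4 CPM in high cells (highest 312 CPM). vasa-2 was found in 2 low cells and in 34 high cells.

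piwi-3 and bruli were found in only some low cells and were high there. piwi-3 was at 5 CPM or more in 13 low cells and in 49 high cells, with medians of 2.907 CPM in low cells and 225 CPM in high cells, and the highest low cell, at 831 CPM, was near the highest of the high cells, at 930 CPM. bruli was at 5 CPM or more in 8 low cells (29.6%, interval 13.8% to 50.2%), against 48 high cells (85.7%, interval 73.8% to 93.6%). Its means, 101.6 ± 218 CPM in low cells and 202 ± 244 CPM in high cells, differed by a log2 ratio of -0.99, just short of 2-fold. X1.24 and X1.13, at 822 and 771 CPM, were the highest of the low cells, and without the highest cell of each group (X1.24 and X1.11) the log2 ratio was -1.31. In mean CPM the direction of bruli differed between ranges of label numbers, while its share of cells was lower in low cells in each range given here. X1.24 and X1.13 both have numbers within 1 to 24. Within the numbers 1 to 24 it was present in 4 of 6 low cells and 9 of 13 high cells with a log2 ratio of 0.73, within 25 to 48 in 4 of 10 low cells and 8 of 11 high cells (-1.01), and within 49 to 72 in 0 of 9 low cells and 11 of 11 high cells (-6.56).

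**Figure D2:**
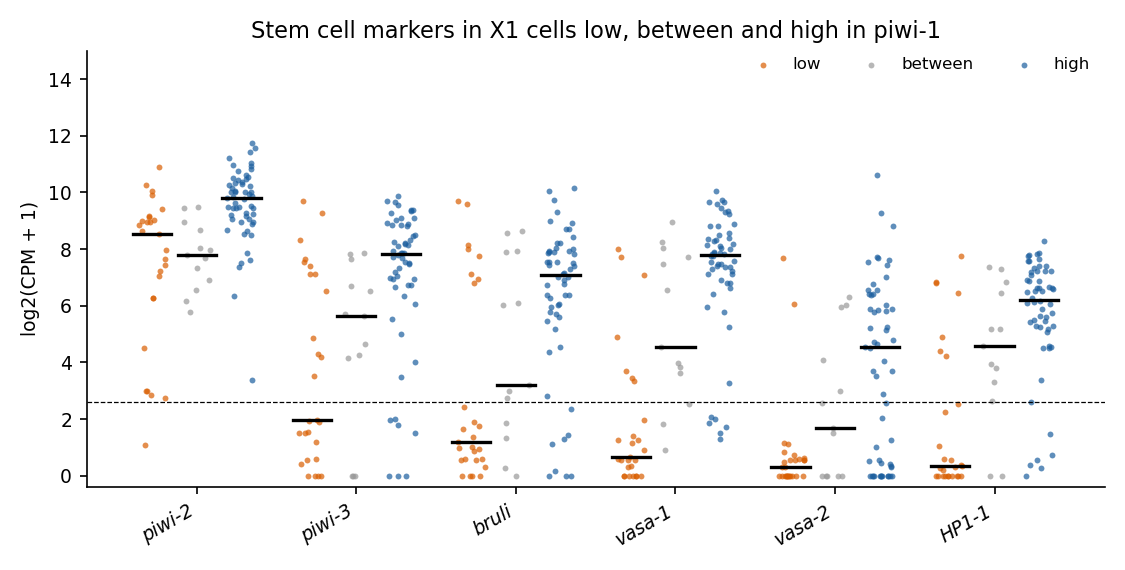
Stem cell markers other than piwi-1 as log2(CPM + 1) (vertical axis) in each X1 cell, with low cells in orange, cells between in grey and high cells in blue from left to right, and the median of each group as a black bar. The dashed line marks 5 CPM. piwi-2 lies above it in 26 of 27 low cells, while HP1-1 and vasa-1 lie above it in 7.

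Counted per cell, low cells had a median of 2 of the 6 stem cell markers at 5 CPM or more and high cells 5.5. At least 3 markers were present in 12 of 27 low cells (44.4%, interval 25.5% to 64.7%) and in 54 of 56 high cells (96.4%, interval 87.7% to 99.6%). All 6 were present in 0 low cells, which allows a share of up to 11.1%, and in 28 high cells. After thinning to 100000 reads, with 1 read counted as present, the medians were also 2 and 5.5. With 1 read counted as present in the full data, the share of cells with at least 3 markers was 11.1 points lower in low cells in place of 52.0, and that of vasa-1 was 25.9 points lower in place of 63.4, so the size of these differences rests on the limit of 5 CPM. The low cells were unlike each other by label number. Those numbered 49 to 72 had 0 to 2 markers each, with bruli and vasa-1 in 0 of 9 cells, while those numbered 25 to 48 had 2 to 5 each, with bruli and vasa-1 each in 4 of 10 cells. The share of cells with at least 3 markers was 90.9 points lower in low cells than in high cells within the numbers 49 to 72 and 10.9 points lower within 25 to 48.

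The 13 cells between the limits were near the high cells in the number of stem cell markers and near the low cells in their summed level. They had a median of 5 of the 6 markers. The summed level of the 6 was 513 CPM at the median in low cells (3.73 to 2061 CPM), 530 CPM in cells between (90.9 to 1647 CPM) and 1813 CPM in high cells (15.2 to 5597 CPM). The 10 most abundant transcripts took a median of 92.9% of the assigned reads in cells between, 82.7% in low cells and 87.6% in high cells. CPM counts all these reads, so the summed levels are not on a like footing, and the part of this was not tested. HP1-1 was present in 11 of the 13 and vasa-1 in 10. Their median numbers of neural markers and nu-genes, 1 and 0, were those of the high cells.

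Of 6 genes of differentiating or mature neurons, all had a higher mean in low cells and all but castor were present in a larger share of them. The list holds pc2 (a prohormone convertase that cuts neuropeptide precursors), synapsin (a synaptic vesicle protein), chat (choline acetyltransferase, the enzyme that makes acetylcholine) and the transcription factors castor, nkx2.4 and egr-4. All 6 had a mean CPM at least 2-fold higher in low cells, against the 21.2% of all transcripts given above, with a median log2 ratio of 2.358. By share of cells 2 of the 6 were higher by 25 points or more, which 1.136% of all transcripts were. No list gene was 2-fold lower. The low cells outside Group 3 of the clustering described below differed less. In these 12 low cells, against all 56 high cells, 3 of the 6 were 2-fold higher and 1, chat, was 2-fold lower, and the median difference in share was -1.49 points. The high cells included X1.44, a cell of Group 3 whose chat level is given below. With the cells of Group 3 left out of both groups, the log2 ratio of chat was positive and no neural gene was 2-fold lower. The difference in share for chat was then -2.576 points. pc2 was present in 4 of the 12, and chat and egr-4 in 1 each.

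pc2 was the neural gene present in the most low cells. Its median was 146 CPM in low cells (highest 3120 CPM) and 0.389 CPM in high cells (highest 995 CPM). It was at 5 CPM or more in 16 low cells (59.3%, interval 38.8% to 77.6%), against 18 high cells (32.1%, interval 20.3% to 46.0%), with a log2 ratio of 3.10. Within the numbers 73 to 96 it was present in 0 of 2 low cells and 6 of 21 high cells. The high cells that had pc2 mostly had it at a lower level, the upper quartile of all high cells being 19.1 CPM and that of low cells 352 CPM.

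synapsin and chat were each present in 10 of 27 low cells (37.0%, interval 19.4% to 57.6%). Among high cells synapsin was present in 4 (7.14%, interval 1.98% to 17.3%) and chat in 7 (12.5%, interval 5.18% to 24.1%). synapsin averaged 118 ± 230 CPM in low cells and 20.1 ± 128 CPM in high cells, and chat averaged 147 ± 350 CPM in low cells and 23.7 ± 164 CPM in high cells. A single high cell, X1.44, held 952 CPM of synapsin and 1228 CPM of chat. Without the highest cell of each group the high means were 3.20 CPM for synapsin and 1.841 CPM for chat, and the log2 ratios were 4.46 for synapsin and 4.98 for chat, against 2.487 for synapsin and 2.578 for chat with all cells (the highest low cells were X1.31 for synapsin and X1.13 for chat).

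egr-4, which is expressed in the planarian brain, was present in 9 low cells and 7 high cells (33.3% and 12.5%), and nkx2.4 in 7 low cells and 9 high cells (25.9% and 16.1%). castor was present in 5 of 27 low cells and 15 of 56 high cells, a smaller share of the low cells although its mean was higher there (69.3 ± 168 CPM in low cells, 14.0 ± 31.4 CPM in high cells). Within the numbers 25 to 48 the median log2 ratio of the 6 neural genes was 0.55, and that of nkx2.4 was -1.25. The high cell X1.44 is in this range, with a summed level of the 6 genes of 3435 CPM. The 11 high cells there had a mean of 376 CPM and a median of 30.8 CPM. By share of cells, at least 3 neural markers were present in 50.9 points more of the low cells within this range, and nkx2.4 in 0.91 points more.

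The nu-genes are 11 transcripts that the study picked for a cluster of these same cells, so their direction is not independent evidence and they are described by cell. They are named for the mouse proteins that match them best, among them stonin (ston-2, which takes part in vesicle recycling), ELAV-like and CELF-type RNA-binding proteins of neurons (elav-2, elav3-11, elav3-16), Musashi RNA-binding proteins known from mammalian neural stem cells (msi-1, msi-2), a receptor tyrosine phosphatase (ptprd-9), a glycine receptor subunit (glrb), a metabotropic glutamate receptor (grm-3), a lipid-binding protein (sec14-l2) and a synaptotagmin (syt-11). All 11 had a mean at least 2-fold higher in low cells, with a median log2 ratio of 4.83 (also with msi-2, which was at 0 in every high cell, set at its bound), but 8 of the 11 had reads in enough cells to pass the filter that the 21.2% refers to. Of the 11, 5 were present in a share of low cells higher by 25 points or more, against 1.136% of all transcripts.

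msi-1 was present in 15 of 27 low cells (55.6%, interval 35.3% to 74.5%) and 5 of 56 high cells (8.93%, interval 2.96% to 19.6%). Its level in low cells was 8.55 CPM at the median and 941 CPM at most, against 0 and 199 CPM in high cells. ston-2 was present in 11 low cells and 2 high cells (40.7% and 3.57%), with a highest level of 1468 CPM in low cells (X1.43) and 365 CPM in high cells (X1.44). elav-2 was present in 10 low cells and 3 high cells. Each nu-gene was thus present in 3 to 15 of the 27 low cells, and the median over low cells was below 1 CPM for every nu-gene but msi-1.

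Of the nu-genes 6 reached 5 CPM in no high cell, which allows a share of up to 5.36%. ptprd-9 was present in 8 low cells at up to 676 CPM, while its highest value in a high cell was 1.849 CPM. glrb was present in 7 low cells, elav3-11 in 6, elav3-16 in 5, msi-2 in 4 and grm-3 in 3. msi-2 had no read in any of the 56 high cells, and its mean of 19.2 CPM in low cells rested on X1.13 at 446 CPM, without which it was 2.816 CPM. syt-11 was present in 7 low cells and 1 high cell, and sec14-l2 in 4 low cells and 1 high cell.

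**Figure D3:**
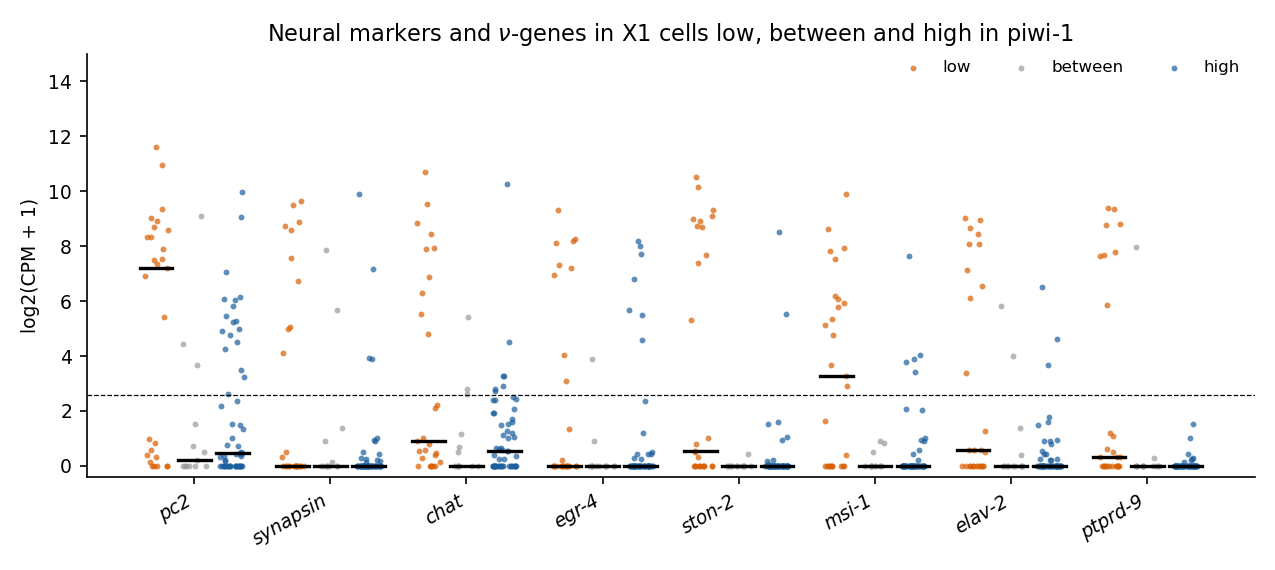
Neural markers (pc2, synapsin, chat, egr-4) and nu-genes (ston-2, msi-1, elav-2, ptprd-9) as log2(CPM + 1) (vertical axis) in each X1 cell, with low cells in orange, cells between in grey and high cells in blue from left to right, and the median of each group as a black bar. The dashed line marks 5 CPM. Values fall into cells near 0 and cells well above the line, and ptprd-9 lies above it in 8 low cells and 0 high cells.

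Per cell, a median of 2 of the 6 neural markers and 2 of the 11 nu-genes was present in low cells, against 1 neural marker and 0 nu-genes in high cells. At least 3 neural markers were present in 12 low cells (44.4%) and 2 high cells (3.57%). At least 3 nu-genes were present in 13 low cells (48.1%, interval 28.7% to 68.1%) and 1 high cell (1.786%, interval 0.0452% to 9.55%), which was X1.44, with piwi-1 at 379 CPM, 1 stem cell marker, 4 neural markers and 3 nu-genes. Of the 27 low cells 5 had no nu-gene and 3 had no neural marker, so not every low cell had them.

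Stem cell and neural markers occurred together in some low cells and apart in others. At least 3 of both lists were present in 7 low cells, 5 had at least 3 stem cell markers only, 5 had at least 3 neural markers only and 10 had fewer than 3 of each. Of the high cells 53 of 56 had at least 3 stem cell markers and fewer than 3 neural ones. X1.24 had no piwi-1 read but 3 stem cell markers and 8 nu-genes, and X1.4 had no piwi-1 read but 4 stem cell markers and 8 nu-genes. At the other end, X1.54 and X1.56 had 1 stem cell marker each and neither a neural marker nor a nu-gene.

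**Figure D4:**
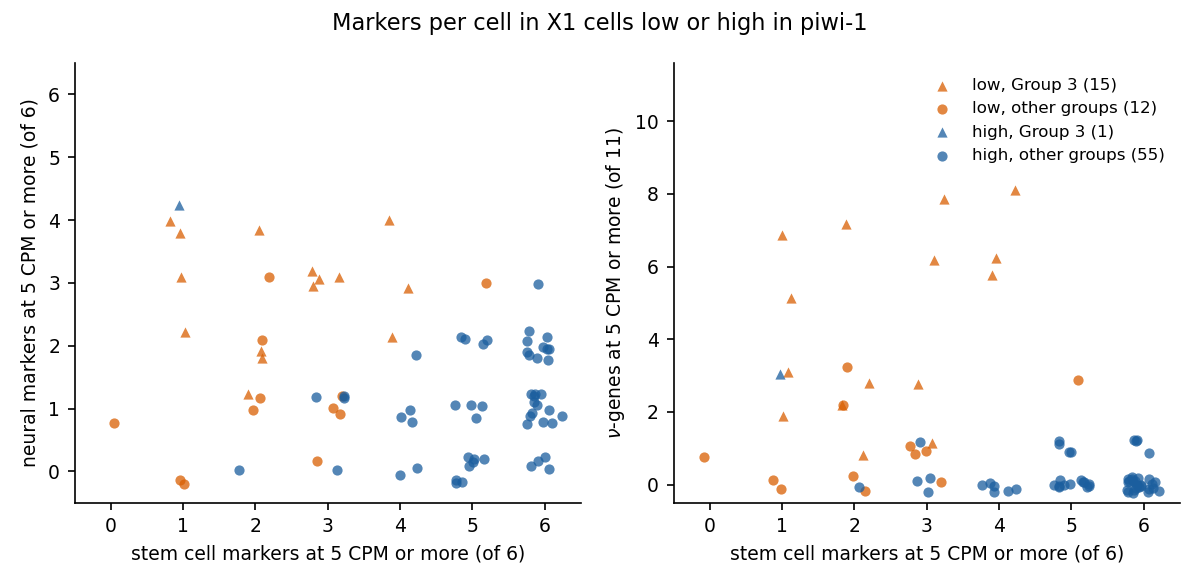
Number of stem cell markers at 5 CPM or more (horizontal axis) against the number of neural markers (left, vertical axis) and of nu-genes (right, vertical axis) in each low (orange) and high (blue) X1 cell, with points shifted slightly to part them. Triangles are cells of Group 3 of the rebuilt clustering, 15 low cells and 1 high cell.

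The low cells fell into 2 of the clusters rebuilt from the 1000 most variable transcripts, which include 10 of the 11 nu-genes and 5 of the 6 neural markers but not piwi-1 or the other stem cell markers. Group 3 held 17 cells, of which 15 were low, 1 was between and 1 was high. Group 1 held the other 12 low cells together with 12 cells between and 31 high cells, and Groups 2 and 4 held 7 and 17 X1 cells, all of them high. Since the clustering used most of the nu-genes and neural markers, their levels by group describe the clusters. Low cells of Group 3 had 1 to 8 nu-genes each (median 5), and the low cells of Group 1 had 0 to 3 (median 1). Against the high cells, 6 of 6 neural genes were 2-fold higher in the low cells of Group 3, where 25.1% of all transcripts were, and 3 of 6 in the low cells of Group 1, where 13.4% were.

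The stem cell markers, which the clustering did not use, were found in like numbers in both kinds of low cell. The low cells of Group 3 and of Group 1 each had a median of 2 stem cell markers. Against the high cells, 5 of the 6 markers were 2-fold lower in the low cells of Group 3, where 23.3% of all transcripts were, and 6 of 6 in the low cells of Group 1, where 31.9% were. vasa-1 was present in 4 of 15 low cells of Group 3 and in 3 of 12 low cells of Group 1, and HP1-1 was likewise present in 4 of 15 and 3 of 12. bruli was present in 6 of 15 low cells of Group 3 and 2 of 12 of Group 1. The low cells of Group 3 had a smaller share of reads in their 10 most abundant transcripts, a median of 79.3% against 87.5% in the low cells of Group 1.

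The 6 transcription factor genes that the study took up for the neural lineage were all at least 2-fold higher in mean in low cells, against 21.2% of all transcripts, with a median log2 ratio of 3.76. This list too was chosen on these cells, and 5 of the 6 were used for the clustering. smad-4 (a mediator of BMP and TGF-beta signals) was present in 7 of 27 low cells (25.9%, interval 11.1% to 46.3%) and 0 of 56 high cells, with a highest value of 404 CPM in low cells and 0.714 CPM in high cells. znf-91 was present in 11 low cells and 9 high cells, cux-1 (a Cut-like homeobox gene) in 6 low cells and 6 high cells, and alx-3 (an Aristaless-like homeobox gene) in 5 low cells and 2 high cells. ski-1 and ski-3, which match the Ski proteins that restrain TGF-beta signalling in vertebrates, were present in 5 and 6 low cells and in 2 and 4 high cells. Both owed most of their low mean to X1.61, at 2379 CPM of ski-1 and 1850 CPM of ski-3, and without the highest cell of each group the log2 ratio of ski-3 was 0.27 in place of 1.432. Without the cells of Group 3 the median of the 6 was -0.12, and cux-1, ski-1 and ski-3 were present in 0 of the other 12 low cells.

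Genes of the sigma and zeta classes, which are among the described classes of neoblasts, differed gene by gene. The study itself questioned how specific the sigma markers are to their class. The sigma genes soxP-2 and nlk-1 were present in about the same shares, 6 of 27 low cells and 12 of 56 high cells for soxP-2 (22.2% and 21.4%) and 10 low cells and 20 high cells for nlk-1 (37.0% and 35.7%). soxP-1 was present in 6 low cells and 20 high cells (22.2% and 35.7%). For these 3 genes the ranges of label numbers went opposite ways. nlk-1 was present in 6 of 10 low cells and 2 of 11 high cells within 25 to 48, and in 2 of 9 low cells and 4 of 11 high cells within 49 to 72. soxP-2 was present in 3 of 10 low cells and 1 of 11 high cells within 25 to 48, and in 1 of 9 low cells and 4 of 11 high cells within 49 to 72. soxP-1 was present in 2 of 6 low cells and 2 of 13 high cells within 1 to 24, and in 1 of 9 low cells and 4 of 11 high cells within 49 to 72. fgfr-4, an FGF receptor-like gene, stood apart from them: it was present in 0 of 27 low cells and 19 of 56 high cells (33.9%, interval 21.8% to 47.8%), with a highest value of 4.84 CPM in low cells and 120 CPM in high cells. inx-13, an innexin of gap junctions, was present in 2 low cells and 11 high cells.

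The zeta class marks neoblasts bound for the epidermis. Its 3 genes that could be paired with a transcript were present in no low cell, while egr-1 and gata123 could not be paired. zfp-1, a zinc finger gene, was present in 0 of 27 low cells, which allows a share of up to 11.1%, and in 16 of 56 high cells (28.6%, interval 17.3% to 42.2%), with highest values of 4.04 CPM in low cells and 266 CPM in high cells. soxP-3 and fgfr-1 were each present in 0 low cells and 9 high cells (16.1%, interval 7.62% to 28.3%). The median log2 ratio of the 3 was -3.10. The interval for 0 of 27 low cells reached 12.8%, above the lower bound for soxP-3 and fgfr-1 in high cells, and the difference was not tested. pou2/3, the 1 marker of a non-neural organ (the excretory protonephridia) that could be paired with a transcript, was present in 0 low cells and 3 high cells.

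**Figure D5:**
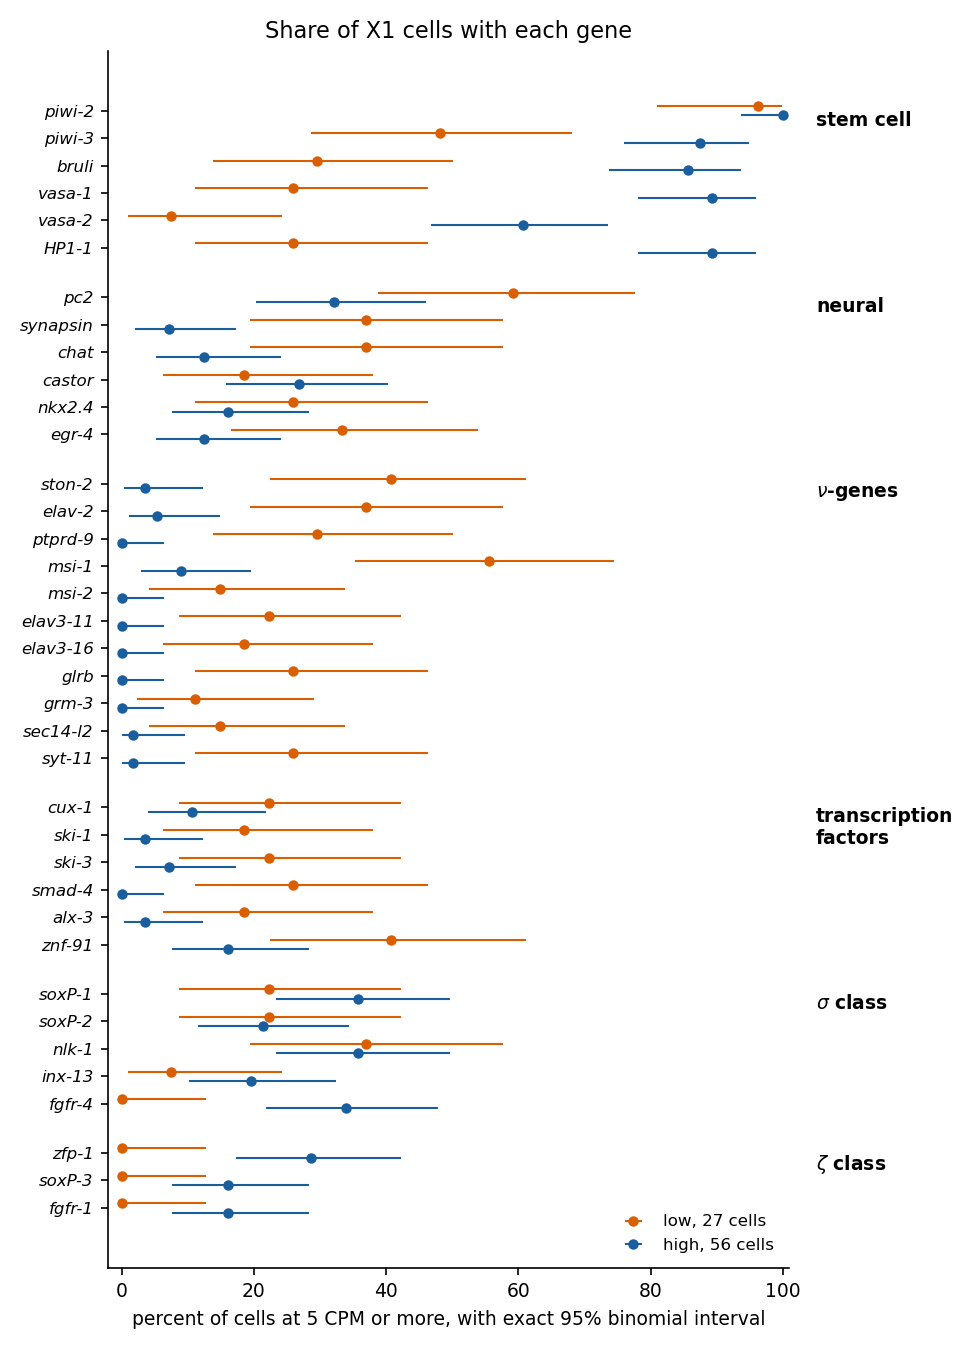
Percent of low (orange, 27 cells) and high (blue, 56 cells) X1 cells in which a gene reached 5 CPM (horizontal axis), by gene and list (vertical axis), with exact 95% binomial intervals. Of the 6 stem cell markers 5 lie lower by 25 points or more, the zeta class genes shown are at 0 in low cells, and all 11 nu-genes lie higher.

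Transcripts that the study picked from these cells for an X2 lineage were mostly lower in low cells, and the label numbers moved with this result. Of the 17 transcripts 13 had a mean at least 2-fold lower in low cells and 1 was 2-fold higher, against 19.4% and 21.2% of all transcripts, with a median log2 ratio of -3.46 (also with the 1 transcript at 0 in a whole group set at its bound). Within the numbers 1 to 24, 25 to 48 and 49 to 72 that median was 0, and it was also 0 without the cells numbered 73 to 96. Smed-GTPBP-6, which matches a GTP-binding protein, was present in 1 of 27 low cells and 17 of 56 high cells, and all 18 of these cells were numbered 73 to 96. The same was true of Smed-SAS-1, a match to sialic acid synthase, with 1 low cell and 17 high cells, all of them in that range. Smed-Mtrnr-2 was present in 5 low cells and 27 high cells (log2 ratio -4.89) and Smed-GT-1 in 21 low cells and 43 high cells (log2 ratio -2.02), and without the cells numbered 73 to 96 these ratios were 0.056 for Smed-Mtrnr-2 and 0.63 for Smed-GT-1. Since 2 low cells and 21 high cells had these numbers, level of piwi-1 and number cannot be told apart for these genes. A run of 15 bases near the start of the listed sequences of Smed-GTPBP-6 and Smed-SAS-1 was held by 8 of the 17 transcripts of this list, Smed-GT-1 and Smed-yps-1 among them, and by 0 of the other 19 transcripts with listed bases. Its letters look like those of an Illumina sequencing adapter, and what the reads on these 8 transcripts measure was not tested.

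Smed-Ybp2-1, a match to Y-box-binding protein 2, which binds RNA in germ cells, was lower in low cells in every range of numbers. It was present in 11 of 27 low cells (40.7%, interval 22.4% to 61.2%) and 54 of 56 high cells (96.4%, interval 87.7% to 99.6%), with medians of 2.384 CPM in low cells and 110 CPM in high cells. The log2 ratio was -1.88 over all cells and -3.68, -1.47, -2.43 and -0.73 in the 4 ranges of numbers, in order. The last range, 73 to 96, holds 2 low cells, and its ratio was short of 2-fold. Smed-Ybp2-2 was present in 12 low cells and 37 high cells (log2 ratio -0.62), but within the numbers 25 to 48 it was present in 7 of 10 low cells and 4 of 11 high cells (log2 ratio 0.68). Smed-yps-1, a match to the Drosophila Y-box protein Ypsilon schachtel, was present in 17 low cells and 50 high cells. Smed-IMTP-1 was the 1 transcript of this list that was 2-fold higher in low cells (log2 ratio 1.626), through X1.41 at 3860 CPM, and without the highest cell of each group (X1.41 and X1.91) its log2 ratio was 0.28.

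Over all transcripts, differences in the share of cells of 50 points or more were few. Among the 15135 transcripts 7 were present in a share of low cells higher by that much and 46 in a share lower by that much. The 1000 most variable transcripts were chosen for their variation over these same cells, so their values are a description. Of the 951 that passed the filter, 484 (50.9%) were 2-fold higher in mean in low cells, against 21.2% of all transcripts. A further 181 (19.0%) were 2-fold lower, against 19.4% of all transcripts.

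Outside the lists, 2 transcripts with the largest differences in mean log2(CPM + 1) in each direction were taken by rule, and their values are a description. SmedASXL_065416 was 4.50 higher on this scale in low cells. It was present in 22 of 27 low cells (81.5%, interval 61.9% to 93.7%) with a median of 45.2 CPM and a highest value of 175 CPM, and in 2 of 56 high cells (3.57%, interval 0.435% to 12.3%) with a highest value of 106 CPM. It was not among the 1000 transcripts of the clustering and was present in both kinds of low cell, 13 of 15 in Group 3 and 9 of 12 in Group 1, and in 3 of the 13 cells between. Within each range of numbers it was present in 4 of 6, 8 of 10, 8 of 9 and 2 of 2 low cells. SmedASXL_019094 was 4.36 higher, in 14 low cells and 4 high cells, and 12 of those 14 low cells belonged to Group 3.

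In the other direction SmedASXL_007884 was 5.82 lower on the scale of mean log2(CPM + 1) in low cells, with medians of 1.259 CPM in low cells and 232 CPM in high cells. It was present in 4 of 27 low cells, 10 of 13 cells between and 53 of 56 high cells. SmedASXL_018693 was 5.38 lower, with medians of 3.16 CPM in low cells and 229 CPM in high cells, and was present in 12 low cells and in every high cell, where its lowest value was 36.0 CPM against 73.3 CPM in the highest low cell. The low and high groups overlapped little for both transcripts.

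The tubes of 200 X1 cells, sorted and amplified together, show what the mixture of cells gives. Their piwi-2 levels were 873 CPM (exact Poisson interval 860 to 887) and 931 CPM (913 to 950), close to the median of the high cells. The nu-genes differed between the tubes. ston-2 was at 41.6 CPM (38.7 to 44.6) in the first tube and had no read in the second, and msi-1 was at 14.4 CPM (12.7 to 16.2) in the first and had no read in the second. chat was at 78.2 CPM in the first tube and 0.563 CPM in the second, and pc2 at 131 and 24.9 CPM. SmedASXL_065416 was likewise at 16.3 CPM in the first and 0.375 CPM in the second. The cause of the difference between the tubes was not tested.

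In the X2 gate the same limits gave 26 low cells, 23 cells between and 23 high cells. vasa-1 was present in 2 of 26 low X2 cells and 4 of 23 high X2 cells, piwi-2 in 18 of 26 low X2 cells and 19 of 23 high X2 cells, and HP1-1 in 8 of 26 low X2 cells and 10 of 23 high X2 cells. None of the 6 markers differed in share by 25 points or more, as was so of nearly all the 5628 transcripts tested there, of which 0.0888% were higher and 0.675% lower by that much in low X2 cells. In mean, 1 of the 6 was 2-fold lower in mean in low X2 cells, where 34.4% of the transcripts were. Of the 6 neural genes 3 were 2-fold higher in low X2 cells, where 26.4% of the transcripts were, and 1 was 2-fold lower. The filter behind these percentages was passed by 5 of the 6, and none differed in share of cells by 25 points or more. The nu-genes were nearly unseen in X2 cells of either kind, with at least 3 of the 11 present in 0 low X2 cells and 0 high X2 cells, which allows shares of up to 11.54% and 13.0%. SmedASXL_065416 was present in 10 low X2 cells and 9 high X2 cells (38.5% and 39.1%). X2 cells had reads on fewer transcripts (medians of 1823.5 in low X2 cells and 2093 in high X2 cells), and whether the 2 gates differ in these contrasts was not tested.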

How the data were processed

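The count table, as deposited by the authors, holds raw read counts per transcript of the SmedASXL assembly (67983 transcripts and 1 entry of unassigned reads) for 96 single X1 cells, 72 single X2 cells, 2 X1 tubes and 1 X2 tube. The submitters' notes name bcl2fastq 1.8.3, Bowtie2 2.2.4 and DESeq2 (no version). The other deposited table is a normalized signal (the authors divided counts by DESeq size factors, Winsorized each transcript and sorted by variation). Values recomputed from the counts had a median ratio of 1 to it. It served to rebuild the clusters (first 1000 transcripts, Ward linkage, 10 groups).

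CPM left out the unassigned reads. "Present" means 5 CPM or more. Filters were reads in 10% of low and high cells, a pseudocount of 1 CPM, a 2-fold ratio of means and a difference of 25 points in share. Thinning to 100000 reads used seed 1. Counting intervals and the limit for a count of 0 (3 cells of the total) cover counting error only. Transcripts were paired with 57 of 63 gene names from the study's supplements and code, 17 of them through values listed for named genes in the same cells, and the 6 others were not analysed here. Named genes were all list members with a name and the 2 transcripts with the largest difference in mean log2 in each direction outside the lists, among those with reads in 50% of the cells of either group. The cells' limits, the lists and the ranges of label numbers were chosen with earlier results of these data known. No test was made, since each gate is 1 sample. The log2 ratio of means was tested on simulated counts, which did not model cells that lack a transcript outright. Shares of cells, markers per cell and the pairing of names were not tested in this way. Tools were scipy 1.17.1, pandas 2.3.3, numpy 2.4.6 and matplotlib 3.10.9 under Python 3.11.15, and edgeR 4.0.16 (TMM library sizes) under R 4.3.3. Alternatives changed limits, scaling, thinning, pseudocount, filter, detection limit, number ranges and cluster membership.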

Additional observations from a re-analysis of the deposited data

How the results depend on the processing

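No paired analysis was possible because low and high cells share no animal, sort or replicate number in the labels and the values come from no test. Of 2470 values recomputed under 24 alternatives, 43 that answer a comparison and 234 of single genes moved by more than the spread between cells (counts of transcripts, by more than 1.5 times), and 1 and 18 that were past 2-fold or 25 points changed sign. Counting those below these limits as well, 90 values changed sign, most often those of soxP-2, nlk-1, Smed-GT-1, soxP-1 and the sigma class median. The cause of the other moves was not tested, except where the alternative uses fewer cells or transcripts. Depth and the number of cells limit genes present in few cells.

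The limits themselves matter. Grouped on the authors' size-factor scale, 12 cells were low and 67 were high, 5759 transcripts were 2-fold lower (2931 by CPM) and the median of the nu-genes was 6.89. On that scale with the CPM groups, the zeta class median was -5.30. With low below 1 CPM, 4589 transcripts were lower and the log2 ratio of Smed-IMTP-1 was -0.19.

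Counts of transcripts 2-fold higher and lower (3208 and 2931) were 1336 and 1442 after thinning, 1168 and 712 with a pseudocount of 10, 570 and 957 as differences of mean log2(CPM + 1), 7224 and 4925 without the filter, 205 and 318 with reads in 50% of cells, and 2109 and 5157 without Group 3 cells. Without the highest cell of each group 2024 transcripts were higher. Within the numbers 1 to 24 and 49 to 72, 4402 and 5572 transcripts were lower.

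The median of the nu-genes was 7.59 with a pseudocount of 0.1, 2.732 with 10, 1.667 as a difference of mean logs and 2.264 without Group 3. For the zeta class these settings gave -5.77, -0.84 and -0.86 (pseudocounts 0.1 and 10, mean logs), and within 49 to 72 its median was -1.03. The median of the transcription factors was 1.208 as a difference of mean logs and -0.12 without Group 3. Within 49 to 72 the stem cell median was -4.31. The X2 lineage median was 0 within 1 to 24, 25 to 48 and 49 to 72 and without 73 to 96.

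The share of cells with at least 3 markers, low minus high, was -52.0 points for the stem cell list, 40.9 for the neural list and 46.4 for the nu-genes. The stem cell value was -11.1 with 1 read counted as present, -74.2 without and -10.9 within the numbers 25 to 48, and -31.1 without and -90.9 within 49 to 72. The nu-gene value was 83.3 within 1 to 24, 22.2 within 49 to 72 and 16.7 without Group 3, where the neural value was 14.8. Median transcripts per cell, low minus high, were -969.5 over all cells and 912.5 within 25 to 48.

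Single genes past 2-fold or 25 points changed sign in these cases. Within 25 to 48 the log2 ratios were -1.25 for nkx2.4, -5.21 for sec14-l2 (share of cells lower by 9.09 points), -0.38 for ski-3 and 0.20 for Smed-GT-1. Without 49 to 72 that of ski-3 was -0.25. Within 49 to 72 the ratios were 0.62 for Smed-GT-1 and 3.81 for Smed-Mtrnr-2 (share of cells higher by 22.2 points). Without 73 to 96 they were 0.63 for Smed-GT-1 and 0.056 for Smed-Mtrnr-2. Without Group 3 they were -0.0060 for grm-3, -0.0088 for sec14-l2, -0.050 for syt-11, -1.83 for cux-1, -2.83 for ski-1, -4.29 for ski-3 and -0.030 for Smed-IMTP-1. Below these limits, the log2 ratio of bruli was 0.57 with groups and values on the size-factor scale and 0.73 within 1 to 24, that of Smed-Ybp2-2 was 0.68 within 25 to 48 and 0.072 after thinning, and without Group 3 the difference in share of cells, low minus high, was -2.576 points for chat and for egr-4.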
